A study of Mus musculus with 6 samples.

Results

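Interferon-inducible gene families were followed in bone marrow-derived macrophages (BMDMs) of wild-type mice and of mice lacking Scd2 in myeloid cells (Scd2-m/-m). Scd2 encodes stearoyl-CoA desaturase 2, an enzyme that puts a double bond into saturated fatty acids. Members were the protein-coding entries of the deposited count table whose symbols begin with Ifit, Ifitm, Oas, Gbp, Slfn, Irgm or Trim30, or with Ifi and a digit, together with named single genes such as Mx1, Isg15, Usp18, Rsad2, Ifih1, Zbp1, Bst2 and Cmpk2. The rule reads symbols only, but it was written with earlier results of these data known. It found 78 members among 40481 genes, of which 21534 were protein coding, and the members fell into 14 families or functional groups.

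RNA was sequenced from 3 wild-type and 3 Scd2-m/-m BMDM samples, with 1 poly(A)-selected library for each. Scd2-m/-m mice carried floxed Scd2 alleles and the lysozyme M-Cre transgene, which is active in the myelomonocytic lineage. All cultures were grown from marrow in medium conditioned by CMG cells, a source of macrophage growth factor, and the labels name no interferon or other stimulus. The study used male and female mice 2 to 5 months old. Which mouse, sex or age gave each library, and whether wild-type mice carried Cre or a floxed allele, were not stated in the sources read here, so a p-value measures only the spread between these libraries. Deposited counts summed to between 46285176 and 57629638 per library. Levels are given in CPM, counts scaled to a common library size, with the sizes adjusted by the trimmed mean of M values (TMM), and genotypes were compared with edgeR's quasi-likelihood test, with p-values adjusted over all genes tested (FDR). A gene is called higher or lower where the FDR is below 0.05.

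The Scd2 transcript itself had 66.9, 77.7 and 62.7 CPM in the wild-type libraries and 59.5, 37.9 and 39.8 CPM in the Scd2-m/-m libraries. Every Scd2-m/-m library lay below every wild-type library, but the log2 fold change of −0.59 ± 0.19 (SE) was not called (FDR = 0.1002). These counts cover the whole gene, and the exons removed from the floxed allele were not stated in the sources read here, so the remaining level does not measure how complete the deletion was. The macrophage label was checked against 12 markers, all of which were abundant, with the least abundant other than Lyz2 at a mean of 161 CPM. Of these 12 markers, 7 were lower and 1 was higher in Scd2-m/-m BMDMs. Over all 14778 genes tested, 9.65% were called higher and 7.84% lower, the background for every count of markers here. Lyz2, the lysozyme M gene whose promoter gives the Cre its name, fell from 22742 ± 584 CPM to 9026 ± 357 CPM (SD, n = 3), and the other 11 markers summed to 22397 to 23366 CPM in wild type and 18868 to 19496 CPM in Scd2-m/-m libraries. Some other marker lists moved with genotype too. No T and NK cell, mast cell and basophil or erythroid marker was called, with 1, 1 and 3 tested. Of 6 stromal and endothelial markers tested, 1 was lower and none higher. Monocyte and myeloid progenitor markers summed to 48.5 to 68.6 CPM in wild type and 148 to 209 CPM in Scd2-m/-m libraries, with 8 of 12 tested higher. The most abundant of them were Ccr2, from 47.8 to 114.6 CPM, and Ly6a, from 7.73 to 43.8 CPM. Ly6c1, Kit, Flt3, Elane and Ctsg were below 1 CPM in every library. Cd34 went the other way and was not called (−0.50, FDR = 0.570). Neutrophil markers summed to 24.0 to 27.9 CPM and 37.5 to 48.1 CPM, with 5 of 7 higher. Mmp8, the most abundant of them, went the other way, from 12.5 to 10.1 CPM, and was not called (−0.31, FDR = 0.146). The defining gene Ly6g stood at 0 in every wild-type library and at no more than 2 counts in any Scd2-m/-m library. Dividing cell markers summed to 51.8 to 61.1 CPM and 163 to 183 CPM, with 12 of 12 higher. Conventional dendritic cell markers summed to 9.18 to 13.05 CPM and 13.03 to 17.6 CPM, with 3 of 7 higher (Ccr7, Cd24a and Flt3). Cd24a alone went from 1.64 to 6.34 CPM. The others tested were not called, with Itgax (−0.36) and Xcr1 (−0.61) below 0 and Zbtb46 (0.68) and Clec9a (0.20) above. Xcr1, Zbtb46 and Clec9a, and also the called Ccr7 and Flt3, were below 1 CPM in every library. B cell markers overlapped in their sum, at 54.2 to 119.7 CPM and 83.7 to 115.9 CPM, with 2 of 4 higher (Cd79a and Cd79b). Markers of plasmacytoid dendritic cells, known as strong interferon producers, summed to 407 to 471 CPM and 415 to 451 CPM, nearly all of it Tcf4 and Irf8, which macrophages also express. Of the 6 tested 1 was higher, Ly6d, from 0.104 to 0.411 CPM (log2 fold change 1.98, FDR = 0.0105), and the defining genes Siglech and Ccr9 were below 1 CPM in every library and not called (1.11 and 0.01). Ly6d, Ccr7, Flt3 and the progenitor marker Prtn3 passed the filter on low counts only through the Scd2-m/-m libraries. At their wild-type levels alone they would not have been tested, and their calls carry that limit. The part of these cell type markers in the results below was not tested.

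Interferons are cytokines that warn cells of infection. Type I interferons bind a receptor made of IFNAR1 and IFNAR2, whose kinases JAK1 and TYK2 phosphorylate STAT proteins, and these join IRF9 on a DNA motif known as the interferon-stimulated response element. Interferon gamma acts through IFNGR1 and IFNGR2, JAK1 and JAK2, and on another motif. The genes that follow include sensors of foreign nucleic acid, proteins that block viral translation or entry, large GTPases that attack vacuoles holding microbes, and brakes on the pathway itself, and macrophages are known for keeping many of them on at a low level without infection.

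That response element was looked for in RefSeq promoters of the GRCm38.p6 build, from 250 bases before to 50 bases after each start, as GAAA, any pair of bases and GAAA again, on either strand. An entry was matched for 62 of the 78 members (79.5%), below the 80% set for a share over a whole set, so the share over all members is void. It was taken over the 69 members with enough counts to be tested, of which 56 (81.2%) had an entry. The pattern stood in 36 of these 56 promoter sets (64.3%) and in 1079 of 27025 genes overall (3.99%). The shorter pattern GAAANNGAA, which includes every match of the longer one, stood in 37 of the 56 (66.1%) and in 9.76% of all genes. The pattern TTCNNNGAA, the form of the interferon gamma element, stood in 10 of the 56 (17.9%) and in 9.55% of all genes. An entry was matched for 77.8% of the members called higher, below the 80%, so no share by call is given. Whether the pattern goes with the rises was not tested. A match is a run of letters and not a measured binding site. The members without an entry were Oas1d, Oas1e, Oas2, Mx1, Gbp4, Gbp8, Gbp9, Iigp1, Ifi204, Dhx58, Zbp1, Usp18, Ifi27, Ifi27l2a, Ifi27l2b and Rtp4.

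The stretches below are shown because they carry the pattern just before the start of members whose values are given later, first from members that were not called and then from members that rose. Capitals mark the bases of this 10-base pattern or of its reverse complement, and each run is read 5′ to 3′ along the gene's own strand.
Isg15 (chr4:156200850-156200921, minus strand): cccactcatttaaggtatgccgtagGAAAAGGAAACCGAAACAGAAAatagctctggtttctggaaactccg
Ifit1 (chr19:34640760-34640838, plus strand): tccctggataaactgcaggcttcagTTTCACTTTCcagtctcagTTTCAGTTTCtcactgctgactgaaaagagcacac
Slfn8 (chr11:83020824-83020883, minus strand): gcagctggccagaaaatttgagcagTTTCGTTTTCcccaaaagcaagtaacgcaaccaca
Slfn9 (chr11:82991841-82991900, minus strand): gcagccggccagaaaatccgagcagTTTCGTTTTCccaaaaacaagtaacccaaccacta
Oas1c (chr5:120812588-120812653, minus strand): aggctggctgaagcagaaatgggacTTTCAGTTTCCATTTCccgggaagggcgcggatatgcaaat
Gbp2 (chr3:142620579-142620638, plus strand): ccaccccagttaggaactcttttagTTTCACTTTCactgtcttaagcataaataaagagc
Trim30a (chr7:104465195-104465254, minus strand): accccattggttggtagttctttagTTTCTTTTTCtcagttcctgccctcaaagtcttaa

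Isg15 held 3 overlapping matches that begin 78 bases before its start, and Ifit1 held 2 that begin 104 bases before its start. Slfn8 and Slfn9 carried the same 10 letters at 48 and 45 bases before a start of each, and only Slfn9 was called. Members called higher whose entry held no match were Ifitm6, Oasl1, Oasl2, Slfn1, Slfn2, Slfn3, Slfn4, Ifi209, Ifi44 and Cmpk2. Uncalled members whose entry held none were Ifit2, Ifitm1, Ifitm10, Oas1h, Ifi47, Trim30b, Trim30c, Ifi35 and Xaf1. Of the Ifi200 genes, 8 had a match, and the stretches of 6 of them are shown so that their likeness can be set beside their changes.
Ifi213 (chr1:173599311-173599370, minus strand): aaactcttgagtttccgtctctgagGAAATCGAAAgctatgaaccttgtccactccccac
Ifi208 (chr1:173673582-173673641, plus strand): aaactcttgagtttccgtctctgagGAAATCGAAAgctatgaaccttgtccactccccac
Ifi206 (chr1:173491324-173491383, minus strand): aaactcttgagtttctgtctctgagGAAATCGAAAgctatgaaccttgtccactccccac
Ifi203 (chr1:173942493-173942552, minus strand): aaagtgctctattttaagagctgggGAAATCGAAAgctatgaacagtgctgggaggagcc
Ifi207 (chr1:173741816-173741875, minus strand): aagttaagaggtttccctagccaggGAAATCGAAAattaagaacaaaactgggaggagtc
Ifi211 (chr1:173913049-173913108, minus strand): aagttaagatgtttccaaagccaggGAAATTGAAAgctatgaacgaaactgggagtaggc

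Aligned on the pattern, the stretches of Ifi208 and Ifi213 were identical over 60 of 60 bases and that of Ifi206 matched each of them at 59 of 60. Ifi207 and Ifi211 shared 50 of 60 bases with each other and 28 to 30 with those 3 genes. Ifi208, Ifi213 and Ifi206 were the members of the family with the largest log2 fold changes, at 0.72, 0.82 and 0.88, and Ifi207 and Ifi211 had 0.25 and 0.24. Ifi203 matched the first 3 at 34 of 60 bases and had 0.41. Ifi214, not shown, matched them at 42 of 60 and had 0.34, which was not called. Ifi209 held no match and rose by 0.61. Ifi206, Ifi208 and Ifi213 also share some exonic windows with one another. A part of promoter sequence in these changes was not tested.

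The members as a group were modestly higher in Scd2-m/-m BMDMs. Of the 69 members tested, 27 were called higher, 2 were called lower and 40 were not called, where 9.65% of all 14778 genes tested were called higher and 7.84% lower. The called rises ran from 1.19-fold for Ifi207 to 1.87-fold for Ifi44, and 14 of the 27 were under 1.5-fold. The median log2 fold change of the 69 members was 0.27 (quartiles 0.12 and 0.48), beside 0.004 for all genes tested, and 62 of the 69 were above 0, where 50.7% of all genes were. Every Scd2-m/-m library lay above every wild-type library for 35 members (17.9% of all genes) and below for 3 (17.0% of all genes), and the genotypes overlapped for 31. The 9 members not tested for low counts were Ifitm7, Oas1d, Oas1e, Oas1f, Slfn14, Slfnl1, Ifi202b, Ifi27l2b and Ifi44l, the last with 0 counts in every library. In bulk samples, fewer cells that express a gene and less RNA of it per cell cannot be told apart.

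**Figure D1:**
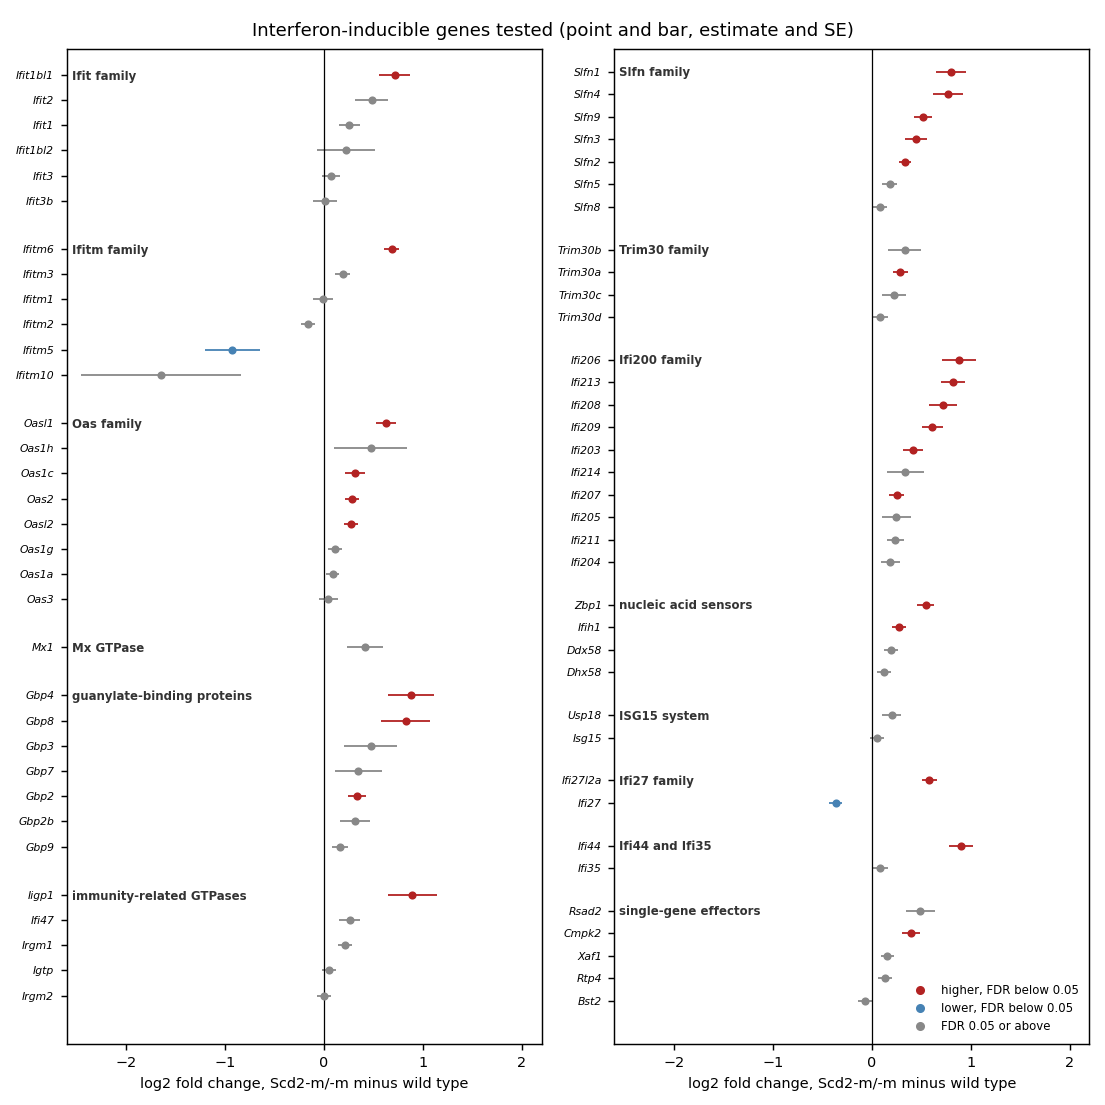
Log2 fold change (Scd2-m/-m minus wild type, horizontal axis) of the 69 members tested, grouped by family, with a point for the estimate and a bar for its SE. Red points are called higher, blue lower and grey not called, and 62 points lie right of 0.

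Summed over all 78 members, the families made up 7249, 6857 and 7678 CPM in the wild-type libraries and 8264, 7868 and 8445 CPM in the Scd2-m/-m libraries, a ratio of the means of 1.13. The genotypes did not overlap in this sum, of which Ifitm3 alone made up 24.6%. The rises were spread over all levels. Of 17 members with a mean below 10 CPM 8 were called higher, of 36 between 10 and 100 CPM 12 were, and of 16 at 100 CPM or more 7 were, beside 9.57%, 9.16% and 11.5% of all genes tested at those levels.

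**Figure D2:**
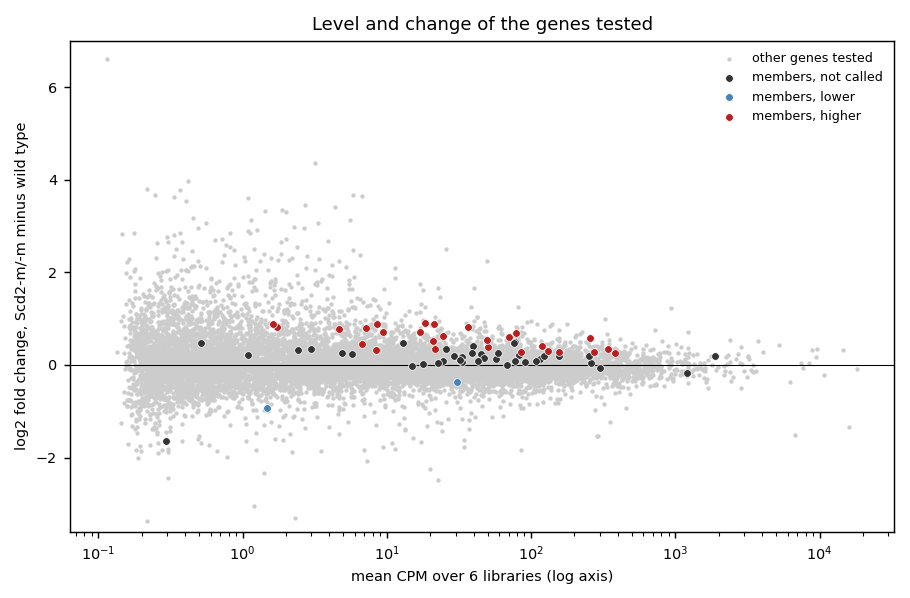
Log2 fold change (vertical axis) against the mean CPM of 6 libraries (horizontal axis, log scale) for all 14778 genes tested in pale grey, with the 69 members in red (27 called higher), blue (2 called lower) and black (40 not called). The members called higher lie between 0 and 1 on the log2 scale at every level.

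The sensors come first in the order of the pathway. Zbp1, which binds Z-form nucleic acid and can start necroptosis, had 38.3, 36.7 and 45.9 CPM in the wild-type libraries and 56.0, 57.4 and 63.2 CPM in the Scd2-m/-m libraries. All 3 Scd2-m/-m values were above all wild-type values, with a log2 fold change of 0.55 ± 0.08 (SE, FDR = 0.00049). Ifih1, which encodes the double-stranded RNA sensor MDA5, rose from 76.6 ± 7.51 CPM to 92.6 ± 3.45 CPM (SD, n = 3), or by 0.27 ± 0.07 on the log2 scale (FDR = 0.0175). Ddx58, the gene of the RNA sensor RIG-I, had 146 ± 12.9 CPM and 168 ± 8.74 CPM, with no overlap between genotypes and no call (log2 fold change 0.20, FDR = 0.067). Dhx58, the gene of LGP2, a regulator of both, had a log2 fold change of 0.12 (FDR = 0.268) and overlapping genotypes. The call of Ifih1 was lost without wild-type replicate 1 or 2 or Scd2-m/-m replicate 2 or 3, with an FDR of up to 0.112, and that of Zbp1 was kept without any single library.

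Members of the DNA-binding Ifi200 family, the PYHIN proteins that include DNA sensors and nuclear regulators of transcription, gave the longest run of calls. Of 10 tested, 6 rose (60%, beside 9.65% of all genes tested), none fell, and all 10 had a log2 fold change above 0, with a median of 0.38. Ifi213 had 26.3, 22.4 and 30.6 CPM in the wild-type libraries and 43.3, 43.4 and 53.4 CPM in the Scd2-m/-m libraries. The lowest Scd2-m/-m library was well above the highest wild-type library, and the log2 fold change was 0.82 ± 0.12 (SE, FDR = 0.00105). Ifi206 had 13.4, 11.8 and 19.3 CPM against 26.4, 25.6 and 30.2 CPM, with a log2 fold change of 0.88 ± 0.17 (FDR = 0.0105). Wild-type replicate 3 was the highest of its genotype for both genes, and Scd2-m/-m replicate 3 the highest of the other.

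Ifi208 (0.72, FDR = 0.00582), Ifi209 (0.61, FDR = 0.00263), Ifi203 (0.41, FDR = 0.0147) and Ifi207 (0.25, FDR = 0.0412) made up the other calls of the Ifi200 family. Ifi207 was its most abundant member per kilobase of exon, at 111 CPM per kb. Ifi204, Ifi205, Ifi211 and Ifi214 had log2 fold changes of 0.19 to 0.34 and were not called. Summed over the family, the wild-type libraries had 707, 665 and 793 CPM and the Scd2-m/-m libraries 842, 874 and 1037 CPM, 1.27-fold higher by the means with no overlap. Single members are less certain. Of 100-base windows of their exons, 56.9% for Ifi211, 16.9% for Ifi209 and 13.1% for Ifi206 occur in another gene. Some partners are genes that the symbol rule does not take in (Mndal for Ifi203, Ifi204, Ifi205 and Ifi211). The sum can therefore also exchange reads with genes that are no members. The treatment of such reads was not stated in the sources read here. The calls of Ifi206 (without Scd2-m/-m replicate 3, FDR = 0.0615), Ifi203 (without wild-type replicate 2, FDR = 0.0664) and Ifi207 (without wild-type replicate 1 or 2 or Scd2-m/-m replicate 2 or 3, FDR up to 0.185) were lost.

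Among genes that act on viral RNA, the 2′-5′ oligoadenylate synthetases, which make the messenger that switches on RNase L, rose in 4 of 8 tested. That is 50%, where 9.65% of all genes tested were called higher. Oasl1, a relative without synthetase activity that restrains Irf7 translation, had 20.6, 15.8 and 21.0 CPM in the wild-type libraries and 31.2, 30.3 and 27.2 CPM in the Scd2-m/-m libraries. No value overlapped, and the log2 fold change was 0.62 ± 0.10 (SE, FDR = 0.000857). Oas2 rose from 141 ± 8.28 CPM to 172 ± 11.1 CPM (log2 fold change 0.28, FDR = 0.00943), Oasl2 from 248 ± 17.4 CPM to 299 ± 22.2 CPM (0.27, FDR = 0.0186) and Oas1c from 7.54 ± 0.532 CPM to 9.38 ± 0.446 CPM (0.32, FDR = 0.046). Oas1a, Oas1g, Oas1h and Oas3 were not called, at 0.09, 0.11, 0.47 and 0.04, and their genotypes overlapped. Oas1a and Oas1g share 40.9% and 31.3% of their 100-base windows with each other. The call of Oasl2 was lost without wild-type replicate 2 or Scd2-m/-m replicate 3 (FDR up to 0.133), and that of Oas1c without wild-type replicate 1 or 2 or Scd2-m/-m replicate 2 or 3 (FDR up to 0.156), and with DESeq2 (FDR = 0.0516) or no filter on low counts (FDR = 0.0507).

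Ifit genes encode proteins that hold back the translation of foreign RNA. Of the 6 tested 1 was called higher (16.7%, beside 9.65% of all genes tested). Ifit1bl1 had 5.32, 6.83 and 9.09 CPM in the wild-type libraries and 10.8, 11.6 and 12.5 CPM in the Scd2-m/-m libraries. The genotypes did not overlap, with a log2 fold change of 0.71 ± 0.16 (SE, FDR = 0.00938), which was lost without Scd2-m/-m replicate 3 (FDR = 0.0543). Ifit1 had 49.7, 48.4 and 63.2 CPM against 57.8, 64.6 and 70.2 CPM (log2 fold change 0.26, FDR = 0.123). Ifit2 had 53.4, 58.9 and 77.8 CPM against 74.4, 90.2 and 100.3 CPM (0.48, FDR = 0.115). For both, wild-type replicate 3 reached into the Scd2-m/-m range, and without that library both were called (Ifit1 at 0.39, FDR = 0.00555, and Ifit2 at 0.65, FDR = 0.00162). Ifit3, the most abundant of the family per kilobase at 52.3 CPM per kb, had 89.2 ± 11.2 CPM and 93.4 ± 9.11 CPM (0.07, FDR = 0.682).

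Schlafen (Slfn) genes, which in mice regulate the growth and quiescence of immune cells and in part cleave tRNA, rose in 5 of 7 tested, with a family median of 0.45. This share of 71.4% stands beside 9.65% of all genes tested. Slfn1 had 5.62, 4.40 and 5.59 CPM in the wild-type libraries and 7.54, 8.45 and 11.2 CPM in the Scd2-m/-m libraries, a log2 fold change of 0.80 ± 0.15 (SE, FDR = 0.00242). Slfn2, which keeps monocytes and T cells quiescent and was the most abundant of the family at 204 CPM per kb, had 305, 296 and 298 CPM against 350, 395 and 391 CPM. Its wild-type libraries lay close together and below all others, and the log2 fold change was 0.34 ± 0.06 (FDR = 0.00212).

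Slfn4 (0.77, FDR = 0.00308), Slfn9 (0.51, FDR = 0.0015) and Slfn3 (0.45, FDR = 0.0124) rose as well. Slfn5 (0.18, FDR = 0.118) and Slfn8 (0.08, FDR = 0.460) were not called. Slfn9 had 16.0, 15.9 and 20.1 CPM against 24.2, 24.7 and 25.4 CPM, while Slfn8, its neighbour with the same 10-base match in its promoter, had 104, 102 and 109 CPM against 104, 108 and 122 CPM and overlapping genotypes. The call of Slfn3 was lost without wild-type replicate 2 or Scd2-m/-m replicate 2 (FDR up to 0.0799), and those of Slfn1, Slfn2, Slfn4 and Slfn9 were kept without any single library.

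**Figure D3:**
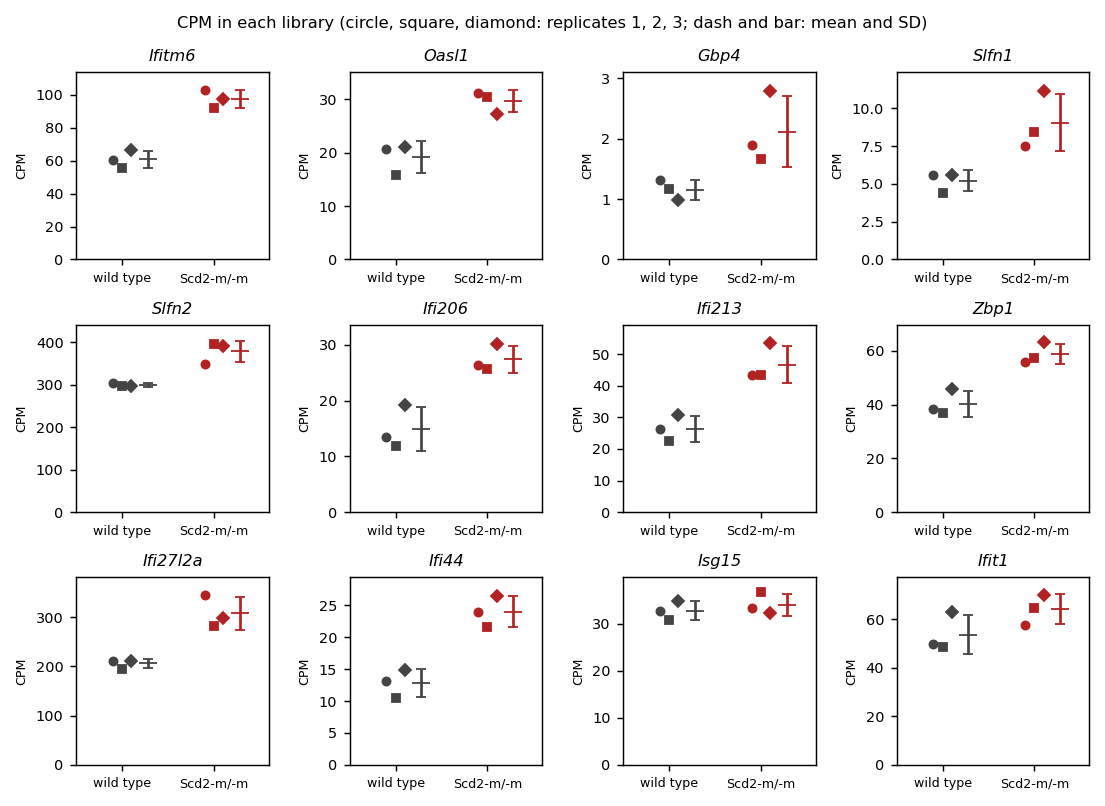
CPM (vertical axes, from 0) of 12 members in each wild-type (grey) and Scd2-m/-m (red) library, with circles, squares and diamonds for replicates 1, 2 and 3 and a dash with a bar for the mean and SD. For 10 genes the red points all lie above the grey ones, and for Isg15 and Ifit1 they overlap.

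At membranes, the Ifitm proteins block the fusion of viruses with endosomes, and their genes went both ways. Ifitm6, known from myeloid cells, had 60.3, 55.8 and 66.2 CPM in the wild-type libraries and 103, 92.2 and 97.3 CPM in the Scd2-m/-m libraries. The gap between the genotypes was wider than the spread within either, and the log2 fold change of 0.68 ± 0.07 (SE, FDR = 2.18e-05) had the smallest FDR of all members. Ifitm5, known from bone, fell by 0.93 ± 0.28 on the log2 scale (FDR = 0.0327) at a very low level, with 1.29, 2.51 and 2.03 CPM against 1.06, 1.27 and 0.74 CPM. Of its exonic bases 29.7% overlap the entry Gm45717 on the same strand, and its call was lost without wild-type replicate 2 or 3 or Scd2-m/-m replicate 1 or 3 (FDR up to 0.174) and with limma-voom (FDR = 0.055).

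Ifitm3, the most abundant member of all per kilobase at 2801 CPM per kb, had 1859, 1626 and 1841 CPM in the wild-type libraries and 2188, 1931 and 1951 CPM in the Scd2-m/-m libraries. The genotypes did not overlap, but the log2 fold change of 0.19 ± 0.08 was not called (FDR = 0.109). Ifitm2 had 1271 ± 48.9 CPM and 1134 ± 74.4 CPM, below wild type in every Scd2-m/-m library and not called (−0.16, FDR = 0.121). It shares 34.9% of its windows with other genes. Ifitm10 had the largest uncalled log2 fold change, −1.65 ± 0.81 (FDR = 0.201), on 0.04, 0.52 and 0.79 CPM against 0.07, 0.26 and 0.10 CPM, so overlapping values decided by few counts. It was called without wild-type replicate 1 (−2.19, FDR = 0.0111) and with no filter on low counts (FDR = 0.0235). Bst2, whose product tetherin holds budding virions at the cell surface, had a log2 fold change of −0.07 (FDR = 0.536), and its genotypes overlapped.

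Rsad2, the gene of viperin, which makes a chain-terminating nucleotide, and Cmpk2, a mitochondrial nucleotide kinase, are neighbours on chromosome 12. Cmpk2 had 38.6, 40.9 and 50.1 CPM in the wild-type libraries and 54.3, 58.7 and 57.7 CPM in the Scd2-m/-m libraries, and rose by 0.40 ± 0.09 on the log2 scale (FDR = 0.0064). Rsad2 had 55.7, 57.5 and 80.4 CPM against 82.4, 94.4 and 95.7 CPM, with a larger log2 fold change of 0.49 ± 0.14 that was not called (FDR = 0.0545). Wild-type replicate 3 stood well above the other wild-type libraries, and without it Rsad2 was called (0.68, FDR = 3.99e-05). It was also called under 7 of 9 other settings, DESeq2 (FDR = 0.000309) and limma-voom (FDR = 0.0113) among them. Xaf1 (0.16) and Rtp4 (0.13) were not called, although neither gene overlapped between genotypes.

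The large interferon-induced GTPases, which coat and break vacuoles that hold microbes, were higher at low levels in some members. Of the guanylate-binding proteins, 3 of 7 rose (42.9%, beside 9.65% of all genes tested). All 7 had log2 fold changes above 0, and the median was 0.35. Gbp4 had 1.31, 1.17 and 0.98 CPM in the wild-type libraries and 1.90, 1.67 and 2.79 CPM in the Scd2-m/-m libraries (log2 fold change 0.88 ± 0.24, FDR = 0.0193). Gbp8 had 0.83, 1.15 and 1.79 CPM against 2.04, 2.43 and 2.22 CPM (0.82 ± 0.25, FDR = 0.0352), and Gbp2 had 16.8, 19.01 and 21.1 CPM against 21.9, 23.8 and 26.0 CPM (0.33 ± 0.09, FDR = 0.0226). None of the 3 overlapped between genotypes, but all were lost without wild-type replicate 2 or Scd2-m/-m replicate 3, and Gbp8 was called only without wild-type replicate 3 when a library was left out (FDR up to 0.134 for Gbp8, 0.103 for Gbp4 and 0.0837 for Gbp2). Gbp2b, Gbp3, Gbp7 and Gbp9 were not called, at 0.16 to 0.47.

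Of the 5 immunity-related GTPases tested, 1 was called higher, Iigp1 (20%, beside 9.65% of all genes tested). It had 4.53, 6.44 and 7.10 CPM in the wild-type libraries and 8.13, 10.6 and 14.7 CPM in the Scd2-m/-m libraries, a log2 fold change of 0.89 ± 0.25 (SE, FDR = 0.0481). Its call was lost without wild-type replicate 1 or 2 or Scd2-m/-m replicate 2 or 3, with an FDR of up to 0.124. Irgm1, a regulator of the family at vacuoles and in autophagy, lay higher in every Scd2-m/-m library at 89.0 ± 3.51 CPM against 76.6 ± 7.17 CPM and just missed the threshold (0.22, FDR = 0.0505). It passed under 7 other settings. Ifi47 (0.26), Igtp (0.05) and Irgm2 (−0.00) were not called. Mx1, a dynamin-like GTPase against influenza and related viruses, had 27.1, 32.4 and 42.9 CPM against 39.5, 46.6 and 50.4 CPM, with wild-type replicate 3 inside the Scd2-m/-m range, a log2 fold change of 0.41 ± 0.18 (FDR = 0.180), and of 0.61 (FDR = 0.00138) without that library.

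Isg15, a ubiquitin-like protein joined to other proteins, is among the best-known interferon targets and was nearly level between genotypes. It had 32.7, 30.9 and 34.8 CPM in the wild-type libraries and 33.3, 36.7 and 32.3 CPM in the Scd2-m/-m libraries, with a log2 fold change of 0.05 ± 0.07 (FDR = 0.663) and a 95% interval of −0.10 to 0.21. Usp18, which removes ISG15 and blocks signaling at IFNAR2, had 27.3 ± 4.37 CPM and 31.4 ± 1.03 CPM (0.20, FDR = 0.176). Both overlapped between genotypes. Of the Trim30 genes, which encode ubiquitin ligases that dampen Toll-like receptor signaling, Trim30a rose from 118 ± 6.19 CPM to 145 ± 16.4 CPM (0.29, FDR = 0.0188), a call lost without wild-type replicate 2 or Scd2-m/-m replicate 2 or 3 (FDR up to 0.105), and Trim30b, Trim30c and Trim30d had 0.33, 0.23 and 0.08 and were not called.

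Small mitochondrial and cytosolic proteins of the Ifi27 and Ifi44 groups held both the widest rise and a fall. Ifi44 had 13.2, 10.4 and 14.9 CPM in the wild-type libraries and 24.0, 21.6 and 26.5 CPM in the Scd2-m/-m libraries, the highest log2 fold change of any member at 0.90 ± 0.12 (SE, FDR = 0.000261). Ifi27l2a had 212, 195 and 211 CPM against 346, 281 and 298 CPM, a log2 fold change of 0.58 ± 0.08 (FDR = 0.000131). The neighbouring Ifi27 went the other way, with 35.3, 35.6 and 33.0 CPM against 27.9, 26.1 and 26.8 CPM, and fell by 0.36 ± 0.07 on the log2 scale (FDR = 0.00175). None of these 3 genes overlapped between genotypes, and each was called without any single library. Ifi35, a partner of Nmi, was not called (0.08, FDR = 0.514).

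Most members lie in clusters of related genes, whose coordinates are those of GENCODE on GRCm38. The 11 Ifi200 genes span chr1:173468485-174031810, and 6 of the 10 tested there rose. Slfn genes other than Slfnl1 span chr11:82951349-83286726, where 5 of 7 tested rose. The Gbp genes form 2 clusters, with 1 of 4 higher at chr3:142530342-142638008 and 2 of 3 higher at chr5:105014150-105139586. The Ifit genes lie at chr19:34550694-34650009, on the chromosome of the floxed allele and 9.64 Mb from Scd2, and 1 of 6 rose there. Within a cluster, called and uncalled genes stood side by side.

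Within each genotype, replicate 3 stood above the others over the members. Measured against the mean of their own genotype on the log2 scale, with 0.1 CPM added, the members had a median of 0.14 in wild-type replicate 3, where 63 of 69 lay above 0, and of −0.06 and −0.07 in wild-type replicates 1 and 2. Scd2-m/-m replicate 3 stood at 0.09, with 52 of 69 above 0, and replicates 1 and 2 at −0.07 and −0.04. The same medians over all genes tested were within 0.004 of 0 in all 6 libraries. The number of members called higher was 37 without wild-type replicate 3 and 16 without wild-type replicate 2 or without Scd2-m/-m replicate 3. Of the 29 members called, 15 were called whichever single library was left out, 14 of them higher: Ifitm6, Oas2, Oasl1, Slfn1, Slfn2, Slfn4, Slfn9, Ifi208, Ifi209, Ifi213, Zbp1, Ifi27l2a, Ifi44 and Cmpk2, and Ifi27 lower.

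**Figure D4:**
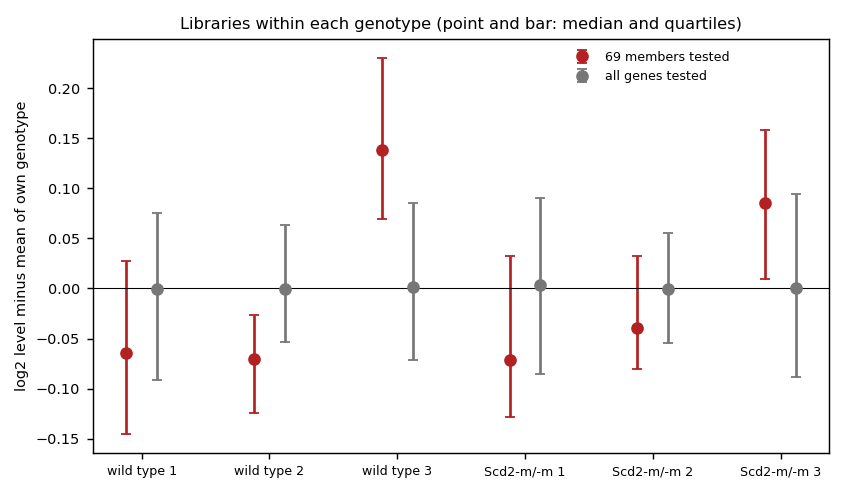
Deviation of each library from the mean of its own genotype (vertical axis, log2 units) as the median (point) and quartiles (bar) over the 69 members (red) and over all 14778 genes tested (grey). Replicate 3 of each genotype stands above 0 for the members, at 0.14 and 0.09, and all grey medians lie near 0.

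Upstream of these genes, interferons themselves were almost absent from the libraries. None of 21 interferon genes had enough counts to be tested. The highest value of Ifnb1, the beta interferon gene, was 0.107 CPM, and Ifng, the gene of interferon gamma, had counts in 1 wild-type library only. Every alpha interferon gene listed had 0 counts in all 6 libraries.

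The receptors were lower in Scd2-m/-m BMDMs, opposite to the members, with 4 of 5 tested called lower and none higher, where 7.84% of all genes were called lower. Ifngr1 had 388, 402 and 394 CPM in the wild-type libraries and 273, 267 and 304 CPM in the Scd2-m/-m libraries, and fell by 0.49 ± 0.06 on the log2 scale (FDR = 0.000145). Ifnar1 had 212, 204 and 191 CPM against 164, 166 and 177 CPM, and fell by 0.26 ± 0.06 (FDR = 0.00952). Ifnar2 and Ifngr2 fell by 0.25 (FDR = 0.00696) and 0.26 (FDR = 0.00772). Il10rb, a subunit shared with interleukin-10 and lambda interferon receptors, was not called (−0.08, FDR = 0.370). The calls of Ifnar1 (FDR = 0.0736), Ifnar2 (FDR = 0.0633) and Ifngr2 (FDR = 0.0696) were lost without Scd2-m/-m replicate 2, and that of Ifnar1 also without wild-type replicate 2 (FDR = 0.0593). Ifngr1 was called without any single library.

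Among 17 kinases and transcription factors of the pathway tested, 2 rose, 1 fell and 14 were not called. In all, 17.6% of the list was called, beside 17.5% of all genes tested. Irf7, the factor that amplifies type I interferon production and is itself interferon-inducible, had 235, 202 and 248 CPM in the wild-type libraries and 316, 291 and 291 CPM in the Scd2-m/-m libraries (log2 fold change 0.39 ± 0.08, FDR = 0.00267). Stat2 rose from 129 ± 4.18 CPM to 156 ± 2.97 CPM (0.27, FDR = 0.00367). Irf1, induced by interferon gamma above all, fell from 106 ± 9.82 CPM to 87.4 ± 3.51 CPM (−0.28, FDR = 0.0135), a call lost without wild-type replicate 3 (FDR = 0.0592). Irf9 had 85.7 ± 1.05 CPM and 87.0 ± 1.63 CPM (0.02, FDR = 0.826), although it is interferon-inducible. Jak1, Jak2, Tyk2, Irf3 and Irf8 were not called, with log2 fold changes of 0.02, −0.04, 0.15, −0.14 and −0.01.

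**Figure D5:**
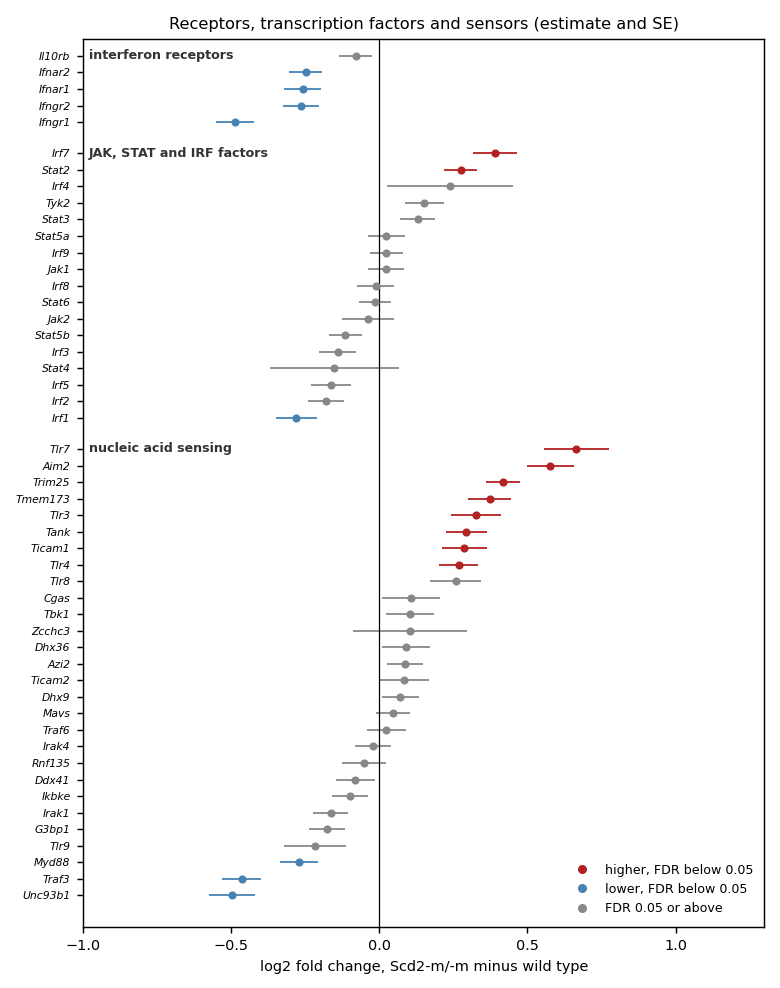
Log2 fold change (Scd2-m/-m minus wild type, horizontal axis) with its SE for 5 interferon receptor genes, 17 kinase and transcription factor genes and 28 nucleic acid sensing genes. Red points are called higher, blue lower and grey not called, and 4 of the 5 receptors lie in blue left of 0.

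Of 28 genes that sense nucleic acids or carry the signal toward interferon, 8 rose (28.6%) and 3 fell, beside 9.65% and 7.84% of all genes tested. Trim25, the ubiquitin ligase that activates RIG-I, had 242, 235 and 255 CPM in the wild-type libraries and 325, 321 and 331 CPM in the Scd2-m/-m libraries (log2 fold change 0.42 ± 0.06, FDR = 0.000234). Aim2, a PYHIN sensor of cytosolic DNA that the symbol rule does not take in, rose from 18.1 ± 0.948 CPM to 27.1 ± 2.40 CPM (0.58, FDR = 0.000242). Traf3, an adaptor on the way to interferon, fell by 0.46 on the log2 scale (FDR = 0.00028). The other falls were Unc93b1, a chaperone of nucleic acid-sensing Toll-like receptors, at −0.50 (FDR = 0.000547), and Myd88, their adaptor, at −0.27 (FDR = 0.00961), the last lost without Scd2-m/-m replicate 2 (FDR = 0.0677).

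Genes that restrain the pathway gave no rise among 21 tested and 4 falls, which were Ptpn6 (−0.29), Ptpn11 (−0.30), Irf2bp1 (−0.30) and Rnaseh2c (−0.34). Over all genes tested, 9.65% were called higher, 7.84% lower and 17.5% in either direction. Whether this list differs from that background was not tested. Ptpn6 and Ptpn11 encode phosphatases that act on JAK-STAT signaling, Irf2bp1 a corepressor of IRF2, and Rnaseh2c a subunit of an enzyme that clears RNA from DNA. Socs1 and Usp18, the best-known inducible brakes, were not among the calls.

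A list of other interferon-inducible genes, outside the symbol rule and chosen with earlier results of these data known, was tested in the same fit. Of 79 tested, 27 rose (34.2%) and 4 fell, the median log2 fold change was 0.19, and 65 were above 0. Of all genes tested, 9.65% were called higher and 7.84% lower, and 50.7% were above 0. Phf11a had 4.65, 4.12 and 4.90 CPM in the wild-type libraries and 7.88, 8.27 and 7.52 CPM in the Scd2-m/-m libraries (0.79 ± 0.12, FDR = 0.000336). Plac8, which also marks monocytes and progenitors and is counted in that list above, rose from 0.334 ± 0.132 CPM to 3.42 ± 0.581 CPM (3.35, FDR = 1.94e-06). The falls were N4bp1 (−0.37, FDR = 0.000551), Ccl5 (−0.50, FDR = 0.000607), Cxcl9 (−1.28, FDR = 0.00734) and Helz2 (−0.41, FDR = 0.0158), the last lost without Scd2-m/-m replicate 2 or 3 (FDR up to 0.111). Cxcl9 and Ccl5 are chemokines for T cells, and Cxcl9 is known as a target of interferon gamma. Cxcl9 had 1.31, 1.67 and 1.51 CPM against 0.681, 0.358 and 0.791 CPM. Over all pathway lists together, 37 of 150 genes tested were called higher (24.7%, beside 9.65% of all genes) and 16 lower, and the median was 0.10.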

How the data were processed

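The 6 libraries were grouped by the genotype in their labels. Per the study's methods, STAR placed the reads on the mouse genome (GRCm38, Ensembl). The authors deposited raw counts for every gene. The counting tool, its use of strand and its treatment of reads shared between genes are not given in the sources used, which bears on near-identical family members. The authors' own table of fold changes and p-values was not used. The count table had 40757 entries, of which 276 repeated a gene with the same counts and were removed. No column of another sample was present.

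Counts were fitted with edgeR 4.0.16 in R 4.3.3 (filterByExpr, TMM, robust glmQLFit, glmQLFTest), without covariates, and the Benjamini-Hochberg adjustment covered 14778 genes. The filter keeps genes of a few counts per library and more. An SE is the log2 fold change divided by the square root of F. Replicates of 1 genotype differed by more than sampling noise (chi-square of 10.4 to 31.4 per gene). The step was tested on simulated data. Symbols were those of the deposited table, with coordinates and exonic lengths from GENCODE, and promoters from RefSeq. Shared windows of 100 bases were sought among the exons of all annotated genes.

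The members and lists were chosen with earlier results of these data known. A gene of the kinase and transcription factor list is not reported here. The text names every member called, the most abundant member of each family, named pathway genes, up to 3 called genes of each list with the smallest p, and the uncalled members with the largest change; other genes named were chosen after their values were seen. The alternatives were other factors, DESeq2 1.42.0, limma 3.58.1 (voom, also weighted by library quality), other filters and thresholds, halved counts, a replicate block, and leaving out each library.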

Additional observations from a re-analysis of the deposited data

How the results depend on the processing

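The median log2 fold change of the tested members stayed between 0.22 and 0.33 under every alternative run. Against 27 members called higher and 2 lower, limma-voom with quality weights called 41 higher, limma-voom called 1 lower, an FDR threshold of 0.01 left 15 and 1, a log2 fold change beyond 0.5 left 16 and 1, and beyond 2 left 0 and 0. Leaving out 1 library gave 16 to 37 higher and 1 to 3 lower. Over all genes (1426 higher, 1159 lower), quality weights gave 2325 and 2182, the threshold of 0.01 783 and 548, changes beyond 0.5 729 and 311, beyond 2 93 and 5, and leaving out 1 library 869 to 1392 and 571 to 1175. Over the pathway lists (37 higher, 16 lower), the threshold of 0.01 left 24 higher, quality weights gave 27 lower, changes beyond 0.5 left 8 and 1, beyond 2 left 1 and 0, and leaving out 1 library gave 25 to 44 and 11 to 18. The shorter promoter pattern raised the share over all genes from 3.99% to 9.76%. The causes were not tested.

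Some uncalled values near 0 changed sign. Irgm2 became 0.0077 with upper-quartile factors and 0.00 with limma-voom (0.0014), no filter (0.00057), 10 counts in every library (0.0049), halved counts (0.0049) and the replicate block (0.0013). Irf9 became −0.00038 with quality weights. Leaving out 1 library gave −0.0425 to 0.0715 for Irgm2, −0.0098 to 0.171 for Ifit3, −0.014 to 0.0625 for Jak1, −0.139 to 0.0369 for Jak2 and −0.0434 to 0.0403 for Irf8.

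Over all genes tested, same-numbered libraries showed little common deviation (correlations of 0.053, −0.020 and 0.040). Over the members, replicate 3 stood highest in both genotypes (medians of 0.14 and 0.09). Whether the numbers pair the libraries was not stated in the sources read here and cannot be decided from these correlations. The fit with the replicate block called 40 members higher and 2 lower, with all 29 called members kept.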

Other observations

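Some entries whose symbols fit the rule are not listed as protein coding and were left out of the members. Of these, Mx2, a polymorphic pseudogene in this annotation, had a log2 fold change of 0.18 (FDR = 0.331, edgeR), Oas1b had 0.16 (FDR = 0.320), and Ifi30, the gene of a lysosomal thiol reductase listed as a processed transcript, had 0.23 (FDR = 0.0887). Slfn10-ps had 0.25 (FDR = 0.0505). Ifi203-ps was the only one of these to be called, with a log2 fold change of 0.79 (FDR = 0.0315), on 158, 162 and 238 wild-type counts against 255, 334 and 490 Scd2-m/-m counts.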
